A study of Rattus norvegicus with 38 samples.

Results

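Carboxylesterases, the enzymes that split ester and amide bonds in drugs and lipids, were examined across 38 rat livers. The family was taken as 10 genes listed by symbol: Ces1c, Ces1d, Ces1e, Ces2a, Ces2c, Ces2e, Ces2g, Ces2h, Ces2i and Ces2j. Of these, 9 were found by symbol among the 31038 gene names of the count table. Ces1e, which encodes the protein egasyn that holds beta-glucuronidase in the endoplasmic reticulum, was not analysed here. Ces2c had 26 counts over all 38 libraries and did not pass the filter on low counts, so 8 members were tested.

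The livers came from Sprague-Dawley rats, an outbred laboratory strain, and were collected on day 28. The extracts named EF, PF and RD in the labels were given into the stomach, EF and PF at 2.5 g/kg and RD at 200 mg/kg. Lipopolysaccharide (LPS), a cell-wall component of gram-negative bacteria that provokes inflammation, was injected into the abdominal cavity. Neither its dose nor its timing is stated in the labels. Without LPS there were control (neither extract nor LPS, n = 5), EF (n = 5), EF_PF (EF plus PF, n = 5) and EF_RD (EF plus RD, n = 4). With LPS there were LPS (no extract, n = 5), LPS_EF (LPS and EF, n = 5), LPS_EF_PF (LPS, EF and PF, n = 4) and LPS_EF_RD (LPS, EF and RD, n = 5). PF and RD were never given without EF, so each could be assessed only as an addition to EF. Neither the rats' ages nor the full names of the extracts appear in the labels.

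Carboxylesterases are made in large amounts by hepatocytes and sit mostly in the lumen of the endoplasmic reticulum. They activate ester prodrugs, clear drug esters, and hydrolyse stored triglyceride so that its fatty acids can be re-used for secretion in lipoproteins. The family is divided by sequence into groups, of which Ces1 and Ces2 are the largest in liver. In rodents both groups have expanded by gene duplication, so that several members lie side by side and resemble each other closely.

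The libraries held 19716622 to 35835012 counted read pairs. The labels give liver as the source and hepatocyte as the cell type, with no step described that would separate the cells. The summed level of 15 hepatocyte markers ran from 152700 to 207000 TPM (a level scaled for gene length and library depth), so the labelled cell type was well represented in every library. A few libraries also held RNA of other tissues. Exocrine pancreas markers summed to 4507 TPM in control 5, 2960 TPM in LPS 3 and 181 TPM in EF_RD 1, and to at most 31.8 TPM elsewhere. Skeletal muscle markers summed to 4922 TPM in EF_RD 1 and 509 TPM in LPS 3, and to at most 4.81 TPM elsewhere. Adipocyte markers summed to 706 TPM in EF_RD 1 and to at most 241 TPM elsewhere. Results that rest on these libraries are therefore also given without control 5, LPS 3 and EF_RD 1, an alternative chosen after seeing the data. The summed level of 13 acute-phase genes was the lowest of its group in LPS_EF 7 (72200 TPM) and LPS_EF_RD 6 (81190 TPM). In EF 1 it was the highest of its group (98120 TPM). A further alternative left out LPS_EF 7, LPS_EF_RD 6 and EF 1 together.

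The members lie on 2 chromosomes of the rat build rn6, per the count table. Ces1d (chr19:15195514-15239827) and Ces1c (chr19:15294524-15335005) are neighbours. Ces2a (chr19:59110-64378, minus strand) and Ces2e (chr19:85679-100386) lie close together, with Ces2j (chr19:487723-495140) farther along and Ces2g (chr19:37025379-37034611) beside Ces2h (chr19:37052555-37067176). Ces2i (chr1:282569926-282575202) and Ces2c (chr1:282640752-282648319) lie on chromosome 1. Reads shared between near-identical copies were left out by the authors' counting, so levels of the Ces2 members are uncertain where copies resemble each other.

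To compare the members upstream of the annotated start, 250 bases are printed for 7 members whose levels are described below, from a RefSeq table on build GRCr8, all on the plus strand. These bases do not show how alike the counted transcripts are. Of the 10 members, 9 had a promoter in that table. Ces2a, annotated there as a transcribed pseudogene, had none. Capitals mark the longest run shared by the promoters of Ces2c, Ces2g, Ces2i and Ces2j, which was AAATTCCTGCCTGGGC. That run was found in 5 of 27457 promoters of the same length on either strand (0.0182%), and the fifth belongs to Ces2b.
Ces2g, chr19:49856420-49856669: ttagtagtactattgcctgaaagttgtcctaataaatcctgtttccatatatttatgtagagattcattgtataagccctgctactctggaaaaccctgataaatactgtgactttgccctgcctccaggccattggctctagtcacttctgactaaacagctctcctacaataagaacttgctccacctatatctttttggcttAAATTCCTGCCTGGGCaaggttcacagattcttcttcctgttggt
Ces2i, chr1:270307363-270307612: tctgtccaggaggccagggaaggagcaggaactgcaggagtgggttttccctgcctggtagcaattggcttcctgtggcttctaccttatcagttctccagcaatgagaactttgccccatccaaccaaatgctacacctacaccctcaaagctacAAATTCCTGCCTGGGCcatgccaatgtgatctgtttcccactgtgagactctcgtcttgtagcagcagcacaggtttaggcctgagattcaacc
Ces2j, chr19:304819-305068: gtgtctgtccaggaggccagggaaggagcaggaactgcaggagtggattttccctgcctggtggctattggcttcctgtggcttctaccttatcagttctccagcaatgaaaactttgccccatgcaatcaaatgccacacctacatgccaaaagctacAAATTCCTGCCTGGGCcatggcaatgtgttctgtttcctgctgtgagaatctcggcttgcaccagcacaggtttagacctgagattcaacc

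The Ces2e and Ces2h promoters do not hold this run. The longest run shared by Ces2c, Ces2e, Ces2g, Ces2i and Ces2j was the shorter CCTGCCTGG, in capitals here, which 0.921% of promoters hold.
Ces2e, chr19:163649-163898: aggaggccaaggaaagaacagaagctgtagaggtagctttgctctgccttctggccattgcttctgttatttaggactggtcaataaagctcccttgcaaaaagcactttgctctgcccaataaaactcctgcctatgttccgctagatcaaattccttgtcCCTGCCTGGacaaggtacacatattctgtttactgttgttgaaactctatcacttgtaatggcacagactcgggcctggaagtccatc
Ces2h is shown because it fell most steadily after LPS. Capitals mark the longest run it shares with the promoter of its neighbour Ces2g, GCTCTAGTC, held by 0.171% of promoters.
Ces2h, chr19:49883914-49884163: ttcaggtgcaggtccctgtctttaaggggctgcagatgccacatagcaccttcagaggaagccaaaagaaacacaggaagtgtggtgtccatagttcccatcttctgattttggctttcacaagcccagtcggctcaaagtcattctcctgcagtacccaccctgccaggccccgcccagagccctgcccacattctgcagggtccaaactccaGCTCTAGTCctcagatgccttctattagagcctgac

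The promoters of Ces2i and Ces2j, on different chromosomes, were identical at 90.1% of aligned columns. The other pairs of Ces2 promoters matched at 43.8% to 62.5%, and pairs of a Ces1 with a Ces2 promoter at 44.5% to 52.1%. Ces1c and Ces1d matched at 60.9%, and capitals mark the longest run they share, AGGGAGAGCTTT, which was found in 3 of 27457 promoters (0.0109%), the other being Gsta5.
Ces1c, chr19:30099197-30099446: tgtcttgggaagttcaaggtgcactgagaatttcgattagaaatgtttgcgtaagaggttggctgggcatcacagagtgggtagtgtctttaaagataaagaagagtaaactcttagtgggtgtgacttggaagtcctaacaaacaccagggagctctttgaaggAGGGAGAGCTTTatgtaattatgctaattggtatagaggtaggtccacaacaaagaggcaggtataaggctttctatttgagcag
Ces1d, chr19:30046244-30046493: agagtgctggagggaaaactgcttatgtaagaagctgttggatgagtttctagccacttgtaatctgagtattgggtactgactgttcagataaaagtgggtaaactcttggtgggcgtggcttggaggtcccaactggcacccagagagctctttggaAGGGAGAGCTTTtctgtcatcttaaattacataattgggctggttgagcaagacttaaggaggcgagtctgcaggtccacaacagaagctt
These matches are descriptions of the letters in this window, not binding sites.

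Per length, the family was dominated by its Ces1 members. Ces1c, which in rodents encodes the carboxylesterase secreted into blood plasma, had a mean of 2168 TPM over the 38 libraries and took 70.9% of the TPM summed over the members. Ces1d, the triacylglycerol hydrolase that mobilises stored triglyceride for lipoprotein secretion, had a mean of 557 TPM and took 18.5%. These shares leave out Ces1e, and also Ces1f, a carboxylesterase outside the list with a mean of 284 TPM. Ces2a was the most abundant Ces2 member, with a mean of 183 TPM. Ces2h and Ces2e had means of 51.3 and 50.9 TPM, Ces2j 17.9 TPM and Ces2g 12.3 TPM. Ces2i was near the limit of detection at 0.910 TPM, and Ces2c was at 0 in 20 of 38 libraries. Ces1c, Ces1d and Ces2a kept this order of group means in all 8 groups, whereas Ces2e changed places with Ces2h and Ces2j, and Ces2j with Ces2g, between groups.

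Over the whole layout, 6 of 8 tested members differed among the 8 groups (edgeR's quasi-likelihood test, adjusted p under 0.05), beside 53% of all 14786 genes tested. They were Ces2h (adjusted p = 9.26e-07), Ces1c (1.92e-04), Ces2a (4.60e-04), Ces2j (0.00135), Ces1d (0.00146) and Ces2g (0.00845). Ces2e (adjusted p = 0.566) and Ces2i (adjusted p = 0.0663) did not pass. These 6 fell into patterns that differed by treatment, and 4 were lower after LPS. A different pair, Ces2a and Ces2j, was higher on average in rats given an extract.

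After LPS the plasma esterase, the triglyceride hydrolase and a pair of Ces2 members were lower. In LPS against control, Ces2h, Ces1d, Ces1c and Ces2g fell, 4 of 8 tested members, and none rose. The share of all genes called lower was 18.1%, and 36.8% were called either way. The median log2 fold change of the 8 members was -0.54, beside -0.00 over all genes tested. Fewer cells of a type and less RNA per cell cannot be told apart in whole liver.

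Ces2h was at 50.9 to 64.1 TPM in control and at 25.4 to 44.4 TPM in LPS. Its control values were 59.9, 60.9, 54.3, 64.1 and 50.9 TPM, and its LPS values 25.4, 44.4, 38.9, 39.1 and 40.2 TPM, so that every LPS library lay below every control library. Ces2h fell by 0.76 on the log2 scale (SE 0.14, adjusted p = 7.95e-05). The call held in all 11 alternatives and with each of the 10 libraries left out in turn.

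Ces1c, at 2190, 2311, 2625, 1543 and 1788 TPM in control, was at 896, 1990, 1813, 1247 and 2086 TPM in LPS. These ranges overlapped, with LPS 1 and LPS 4 below every control. Ces1c fell by 0.52 (SE 0.17, adjusted p = 0.0200). The call was lost without control 5 (adjusted p = 0.0588), LPS 1 (0.0754) or LPS 4 (0.0640), and in 5 of 11 alternatives, among them the fit without control 5, LPS 3 and EF_RD 1 together, where it stood at -0.47 (0.0639).

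Ces1d was at 485, 914, 713, 648 and 609 TPM in control and at 294, 706, 646, 460 and 429 TPM in LPS, again with overlapping ranges. It fell by 0.55 (SE 0.20, adjusted p = 0.0328). Leaving out control 4 (adjusted p = 0.117), LPS 1 (0.105), LPS 4 (0.0690) or LPS 5 (0.0656) ended this call, as did 5 of 11 alternatives.

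Ces2g was at 12.9, 11.8, 13.5, 12.5 and 14.6 TPM in control and at 8.68, 11.1, 10.4, 10.8 and 13.1 TPM in LPS. Every LPS library except LPS 5 lay below every control. It fell by 0.41 (SE 0.12, adjusted p = 0.00816). The smaller drop lost its call when total counts were the library size (adjusted p = 0.0533), with the replicate number as a block (0.0686) and in limma fits on TPM (0.0593 and 0.0582).

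The remaining tested members were not called after LPS. Ces2j gave a log2 fold change of -0.59 (95% interval -1.15 to -0.04, adjusted p = 0.0980), and it was called lower (-0.85, adjusted p = 0.0370) without control 5, LPS 3 and EF_RD 1. Ces2a gave -0.35 (95% interval -0.82 to 0.11) and Ces2i 0.06 (-0.76 to 0.87). Of carboxylesterases outside the list, Ces1f, which lies beside Ces1d, fell by 1.04 (SE 0.20, adjusted p = 1.57e-04).

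The same 4 members were lower after LPS when the no-extract arm and the 3 extract arms were averaged, a contrast added after seeing the data. It holds the control and LPS libraries of the comparison above, so it is no independent repeat of it. Ces2h fell by 0.62 (SE 0.07, adjusted p = 4.12e-09), Ces1d by 0.53 (SE 0.11, adjusted p = 5.95e-05), Ces1c by 0.51 (SE 0.09, adjusted p = 1.19e-05) and Ces2g by 0.30 (SE 0.06, adjusted p = 7.51e-05). The background was high, with 31.8% of all genes called lower and 61.4% either way. These calls held in all 10 alternatives and with each of the 38 libraries left out.

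Within each extract arm the counts varied. In LPS_EF against EF, 3 of 8 members fell, Ces2h, Ces1d and Ces1c, beside 14.5% of all genes called lower and 29.1% either way. In LPS_EF_PF against EF_PF the same 3 and Ces2g fell, beside 17.3% called lower and 36.5% either way. In that arm Ces2h ran from 42.1 to 48.5 TPM with LPS and from 62.0 to 69.5 TPM without. Ces1c ran from 1723 to 2494 TPM with LPS and from 2539 to 3420 TPM without, so neither gene's groups overlapped there. In LPS_EF_RD against EF_RD, 1 member fell, Ces2h (-0.40, SE 0.14, adjusted p = 0.0388), beside 10.7% of all genes, and 1 rose, Ces2j (0.83, SE 0.30, adjusted p = 0.0392), beside 12.8% called higher and 23.5% either way. Several of these calls were near the threshold and were lost on leaving out any 1 of several libraries. In LPS_EF against EF, Ces1c (-0.46) lost its call without EF 2, EF 3, EF 4, EF 5, LPS_EF 3, LPS_EF 5 or LPS_EF 6 (adjusted p up to 0.160), and Ces1d (-0.62) without EF 2, EF 3, EF 5, LPS_EF 3, LPS_EF 4 or LPS_EF 6 (up to 0.0666). In LPS_EF_RD against EF_RD, Ces2h lost its call without EF_RD 2, EF_RD 3, EF_RD 4, LPS_EF_RD 1 or LPS_EF_RD 2 (adjusted p up to 0.172). Ces2j lost its call there without EF_RD 1, EF_RD 2, EF_RD 3, LPS_EF_RD 1, LPS_EF_RD 6 or LPS_EF_RD 8 (up to 0.131). Without control 5, LPS 3 and EF_RD 1, Ces2h fell by 0.55 (adjusted p = 0.00738) and Ces2j stood at 0.79 (adjusted p = 0.0704).

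**Figure D1:**
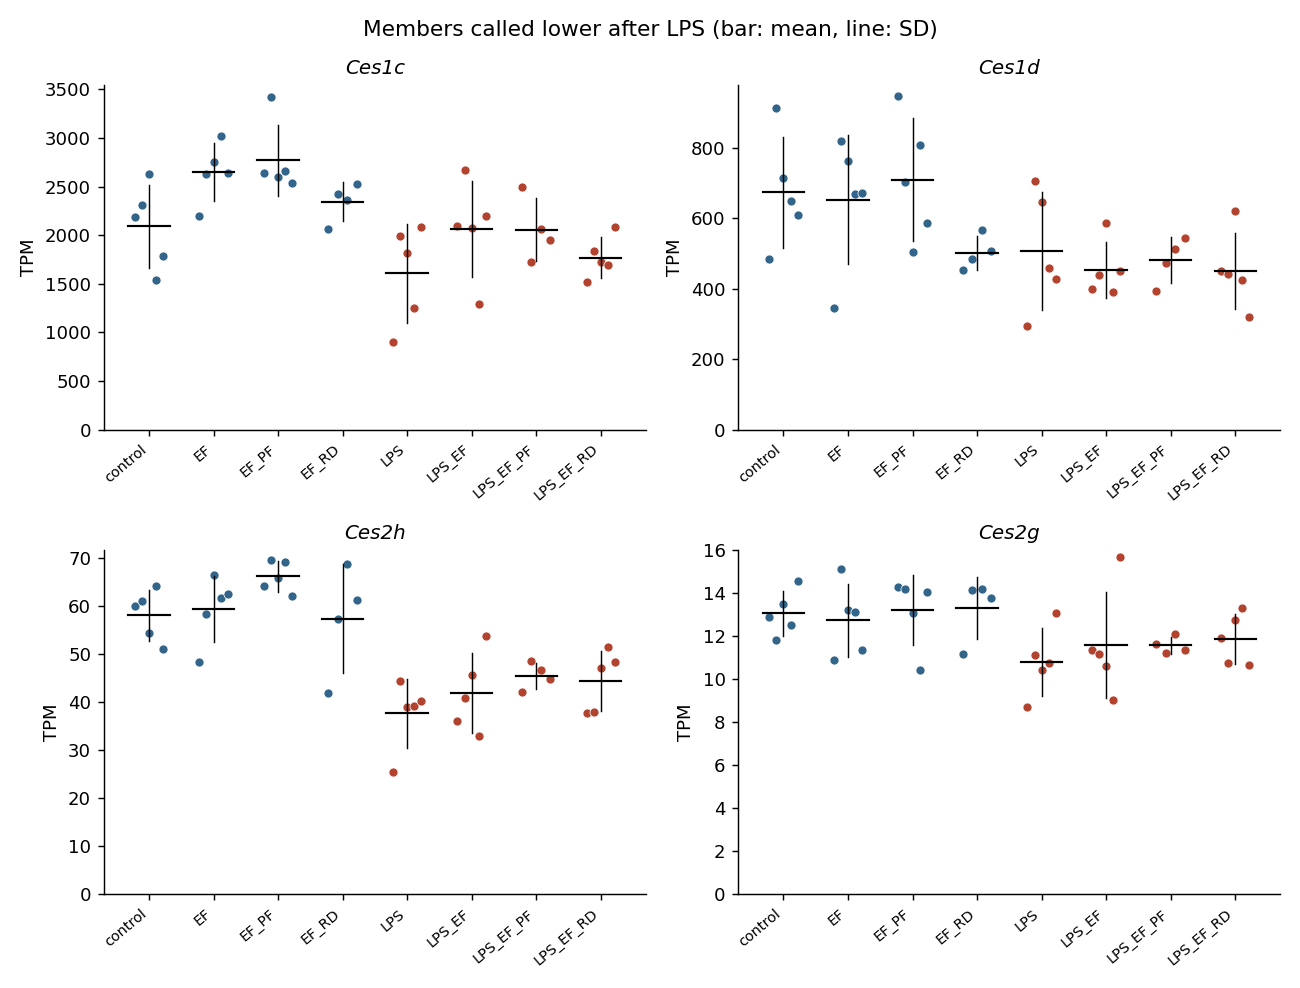
Levels of Ces1c, Ces1d, Ces2h and Ces2g in TPM (y axes from 0) in each of the 38 libraries by group (x axes), with blue points without LPS and red points with LPS, the bar the group mean and the line the SD. All 5 LPS values of Ces2h, 25.4 to 44.4 TPM, lie below the 5 control values, whereas the ranges of Ces1c, Ces1d and Ces2g overlap.

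Other genes of drug and lipid ester metabolism were read from lists, beside 18.1% of all genes called lower and 36.8% either way in LPS against control. Of 22 tested ester and lipid hydrolases outside the family, 12 fell and 2 rose in LPS against control (median -0.70). Cmbl, a hydrolase that activates ester prodrugs, fell by 1.58, Lipc, the hepatic lipase, fell by 0.88, and Lpl, lipoprotein lipase, rose by 1.57. Of 13 tested targets of the xenobiotic receptors CAR and PXR, 6 fell (median -1.04), led by Ugt2b1 (-1.51), Cyp3a2 (-1.34) and Abcc2 (-1.24). Of 11 nuclear receptors and regulators, 6 fell (median -0.47), among them Nr1i3, which encodes CAR (-1.12, adjusted p = 0.0276), and Nr1i2, which encodes PXR (-0.71, adjusted p = 0.0105). Of 9 genes of triglyceride export, 4 fell and 1 rose (median -0.35). Gusb, the beta-glucuronidase that egasyn retains, fell by 0.23 (SE 0.09, adjusted p = 0.0340). Hepatocyte markers moved with the members, 11 of 15 lower and 1 higher. Neutrophil and monocyte markers rose, 8 of 8 tested. Summed over the 9 in the count table, they were at 5.16 to 34.1 TPM in control and 257 to 5644 TPM in LPS. Lcn2, on that list, alone ran from 0.082 to 5388 TPM over the 38 libraries, so the sums may largely reflect this gene. The part of either marker list in the drop of the members was not tested.

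Levels of Ces2a and Ces2j were higher with extracts on average. Without LPS, edgeR's main run called neither gene in any single comparison of an extract with control. Averaged over rats with and without LPS, a contrast added after seeing the data, Ces2a rose by 0.81 in extract arms against no extract (SE 0.14, adjusted p = 0.00109). Ces2j rose by 0.78 (SE 0.17, adjusted p = 0.00745). These were 2 of 8 tested members called higher, beside 1.45% of all genes called higher and 3.06% either way, and none was called lower. Both calls held in all 10 alternatives and with each of the 38 libraries left out. Ces2i gave 0.82 (SE 0.24, adjusted p = 0.0553) and was called without control 5, LPS 3 and EF_RD 1 (0.98, adjusted p = 0.0269).

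Ces2a, related to enzymes that hydrolyse diacylglycerol and drug esters, was at 180, 112, 128, 87.0 and 121 TPM in control. In EF it was at 219, 222, 185, 174 and 261 TPM, in EF_PF at 164, 224, 219, 194 and 196 TPM, and in EF_RD at 178, 131, 183 and 130 TPM. All but control 3 lay below every EF library, and EF_RD overlapped control.

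After LPS without extract, Ces2a was at 62.8, 102, 165, 116 and 101 TPM. It was at 159, 205, 331, 183 and 253 TPM in LPS_EF, at 158, 255, 200 and 160 TPM in LPS_EF_PF, and at 239, 146, 178, 279 and 342 TPM in LPS_EF_RD. All LPS libraries but LPS 3 lay below every library of the 3 extract arms.

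Ces2j was at 20.1, 8.99, 8.86, 11.9 and 16.9 TPM in control, 14.9, 12.9, 14.7, 26.9 and 27.8 TPM in EF, 11.3, 18.8, 18.8, 17.0 and 18.9 TPM in EF_PF, and 14.6, 12.1, 14.9 and 20.3 TPM in EF_RD. These ranges overlapped. After LPS alone it was at 9.55, 7.98, 13.7, 9.62 and 8.29 TPM. It reached 20.8, 18.9, 26.2, 16.9 and 20.9 TPM in LPS_EF, all above every LPS library. In LPS_EF_RD it was at 42.2, 25.2, 13.3, 30.0 and 30.6 TPM, of which only LPS_EF_RD 4 fell below LPS 3, and in LPS_EF_PF at 12.02, 21.4, 17.5 and 22.6 TPM.

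Single comparisons gave fewer calls. EF, EF_PF and EF_RD share the control libraries, so these 3 comparisons are not independent of each other. In EF against control edgeR called 0 of 8 members, beside 0.92% of all genes, with 3 at an unadjusted p under 0.05. DESeq2 called 1, Ces2a (adjusted p = 0.0444). In edgeR Ces2a stood at 0.81 (SE 0.24, 95% interval 0.34 to 1.27, adjusted p = 0.0968). In EF_PF against control edgeR and DESeq2 each called 0, beside 0.622% of all genes, with 3 at an unadjusted p under 0.05, and Ces2a stood at 0.68 (SE 0.24, adjusted p = 0.180). In EF_RD against control both tools called 0, beside 1.52%, with 1 at an unadjusted p under 0.05. Ces2a stood there at 0.24 (95% interval -0.25 to 0.73). Against control in edgeR, Ces2j stood at 0.60 in EF (adjusted p = 0.395), 0.34 in EF_PF (0.670) and 0.13 in EF_RD (0.873).

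With LPS, the extract comparisons share the LPS libraries. In LPS_EF against LPS 1 of 8 members was called, Ces2a, which rose by 1.14 (SE 0.24, adjusted p = 0.0452), beside 0.0744% of all genes called higher and 0.108% either way. It lost the call in 7 of 11 alternatives (adjusted p up to 0.197, with the replicate block), and without LPS 1, LPS 2, LPS 4, LPS 5, LPS_EF 5 or LPS_EF 7 (up to 0.174). Ces2j stood at 1.15 (SE 0.28, adjusted p = 0.0961). In LPS_EF_RD against LPS 1 of 8 was called, Ces2j, which rose by 1.56 (SE 0.28, adjusted p = 0.0305), beside 0.0135% called higher, which was also the share called either way. It lost the call in 3 of 11 alternatives (adjusted p up to 0.359, in the compared groups alone), and without LPS 1, LPS 2, LPS 4, LPS 5, LPS_EF_RD 1, LPS_EF_RD 6 or LPS_EF_RD 8 (up to 0.204). Ces2a stood at 1.18 (SE 0.24, adjusted p = 0.0690) and was called without control 5, LPS 3 and EF_RD 1 (1.35, adjusted p = 0.0452). In LPS_EF_PF against LPS edgeR and DESeq2 each called 0 members, beside 0.0406% of all genes, with 2 at an unadjusted p under 0.05; Ces2a stood at 0.81 and Ces2j at 0.87.

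**Figure D2:**
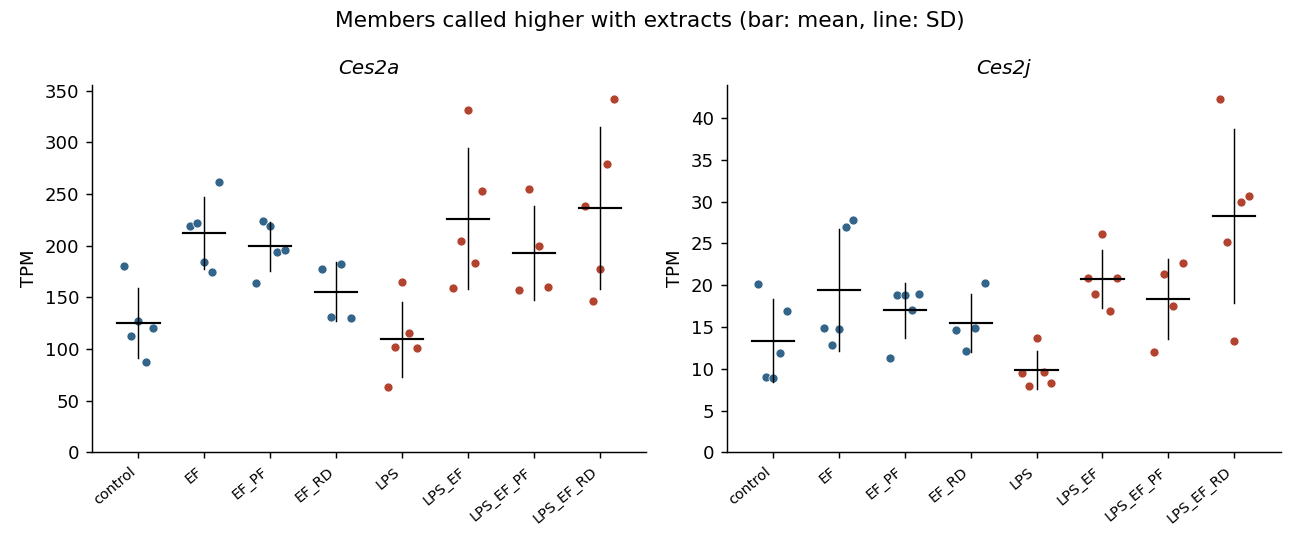
Levels of Ces2a and Ces2j in TPM (y axes from 0) in each of the 38 libraries by group (x axes), with blue points without LPS and red points with LPS, the bar the group mean and the line the SD. In LPS_EF, Ces2j runs from 16.9 to 26.2 TPM, above the 5 LPS libraries at 7.98 to 13.7 TPM.

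Adding PF or RD to EF moved no tested member past the threshold in either setting. In EF_PF against EF, EF_RD against EF, LPS_EF_PF against LPS_EF and LPS_EF_RD against LPS_EF, edgeR and DESeq2 called 0 of 8 members, beside 0.162%, 0.724%, 0.00676% and 0% of all genes. Members at an unadjusted p under 0.05 were 0, 2, 0 and 0. The pair, both lower in EF_RD than in EF, was Ces2a (-0.565, adjusted p = 0.285) and Ces1d (-0.482, adjusted p = 0.291). The intervals were wide: for Ces2j, RD added to EF gave -0.47 (95% interval -1.05 to 0.11) without LPS and 0.41 (-0.13 to 0.94) with it.

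Whether the extracts acted differently with LPS was tested as an interaction. EdgeR and DESeq2 called 0 of 8 members for EF, EF_PF and EF_RD, beside 0.108%, 0.0812% and 0.128% of all genes, with 0, 0 and 2 at an unadjusted p under 0.05. The pair was Ces2j (1.43, SE 0.41, adjusted p = 0.280) and Ces2a (0.94, SE 0.35, adjusted p = 0.490) in the EF_RD interaction. These data therefore did not establish that the extract effect on either gene differed with LPS.

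Some of the listed targets of CAR and PXR also rose with extracts. In extract against no extract, 5 of 13 tested targets rose and 1 fell (median 0.47), beside 1.45% of all genes called higher and 3.06% either way. Among them were Cyp2b1 (1.99, adjusted p = 0.0139), Aldh1a1 (1.48, adjusted p = 0.00503) and Cyp2b2 (1.37, adjusted p = 6.78e-04). Summed over the 13 targets, the median level was 6965 TPM in control, 9018 in EF, 7156 in EF_PF and 6739 in EF_RD. With LPS it was 4192 TPM in LPS, 3431 in LPS_EF, 3541 in LPS_EF_PF and 4593 in LPS_EF_RD. The receptor genes were not called, with Nr1i2 at 0.10 (SE 0.13) and Nr1i3 at 0.42 (SE 0.24), nor was Gusb at 0.05 (SE 0.05). Of 22 tested ester and lipid hydrolases, 2 rose, Lipe (0.73) and Bche (0.53), and 2 fell, Lypla1 and the pancreatic enzyme Cel (-8.53). All 8 tested exocrine pancreas markers were also called lower, and control 5 and LPS 3, with 4507 and 2960 TPM of them, both belong to the arms without extract. EF_RD 1, with 706 TPM of adipocyte markers, belongs to an extract arm, and its part in the rise of Lipe was not tested. Without control 5, LPS 3 and EF_RD 1, Ces2a rose by 0.88 (adjusted p = 0.00148) and Ces2j by 0.79 (adjusted p = 0.0157).

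**Figure D3:**
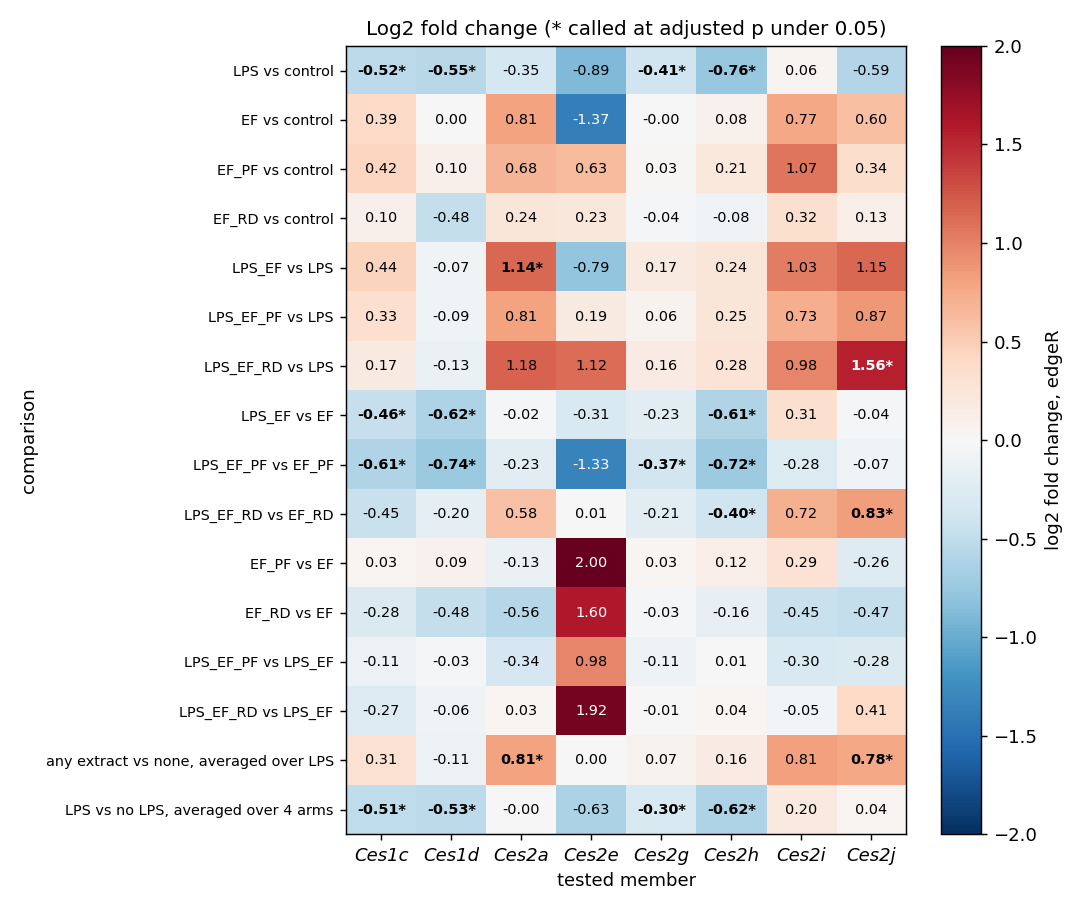
Log2 fold changes from edgeR for the 8 tested members (x axis) in 14 comparisons of groups and 2 averaged contrasts (y axis), red for higher and blue for lower, with an asterisk and bold type where the adjusted p was under 0.05. Ces2h is called lower in every comparison of LPS against no LPS, from -0.76 to -0.40.

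The spread between rats was widest, among the 8 tested members, for Ces2e, which ran from 1.49 to 167 TPM, a 112-fold range, and no library lay between 5.92 TPM (EF 2) and 22.9 TPM (LPS 1), a gap of 3.87-fold. Below the gap were 16 libraries and above it 22. Among 11097 genes ranked by the widest such gap on the log2(TPM + 0.1) scale with at least 8 libraries on each side, Ces2e ranked 21, and the next member, Ces2j, ranked 1487.

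Control held only values above the gap, at 68.8, 25.1, 61.2, 45.8 and 88.6 TPM. EF held 3.46, 5.92, 1.49, 96.9 and 1.87 TPM, so EF 4 alone was above. EF_PF held 55.1, 140, 167, 5.49 and 79.8 TPM. EF_RD held 118, 2.16, 164 and 2.51 TPM, and so was split evenly.

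With LPS, Ces2e was at 22.9, 2.62, 5.42, 89.9 and 52.1 TPM in LPS and at 2.46, 82.8, 5.52, 2.09 and 3.72 TPM in LPS_EF. LPS_EF_PF held 5.82, 4.17, 72.2 and 81.1 TPM, and LPS_EF_RD 87.0, 59.5, 103, 115 and 4.37 TPM. Low values thus occurred in every group but control, in 7 of 19 libraries without LPS and 9 of 19 with it.

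No comparison called Ces2e, and its errors were wide. EF against control gave -1.37 (SE 1.21, 95% interval -3.74 to 0.99, adjusted p = 0.763) and LPS against control -0.89 (SE 1.19, 95% interval -3.23 to 1.45, adjusted p = 0.591). Differences of several fold either way were therefore not detectable at this spread. The libraries with muscle or pancreas markers lay on both sides of the gap, with control 5 and EF_RD 1 above and LPS 3 below.

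**Figure D4:**
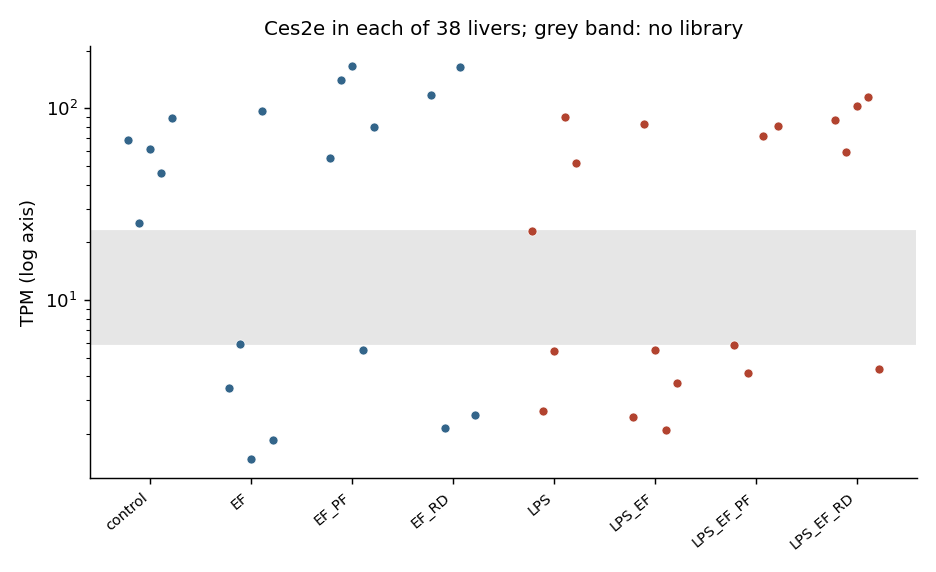
Levels of Ces2e in TPM (y axis, log scale) in each of the 38 libraries by group (x axis), with blue points without LPS, red points with LPS, and a grey band from 5.92 to 22.9 TPM. The band holds no library: 16 values lie below it and 22 above, and all 5 control values lie above.

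Members differed in how they tracked each other over the 38 libraries, described here by Spearman's rho of TPM, with treatment and library shared by all points. Ces2a and Ces2i reached 0.83, and 0.77 after each value was set against its group mean, but Ces2i had only 3 to 34 counts in a library. Ces2a and Ces2j reached 0.70 (0.47 within groups). Ces2h and Ces1c reached 0.79 (0.44), and Ces2g and Ces2h 0.75 (0.38). Ces2e stayed between -0.01 and 0.26 with each of the other 7 tested members. With Ces2, a related gene outside the list at chr1:282694908-282702176, it reached -0.57 (-0.64 within groups), but Ces2 was sparse, at 0 to 0.901 TPM and at most 23 counts in a library.

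Tested genes averaging 2 CPM or more, 11108 in number, were compared with the top Ces1 and Ces2 members over the 38 libraries. Most like Ces1c were Aldh1l1 (rho 0.83), a folate enzyme, Acad9 (0.82), a mitochondrial acyl-CoA dehydrogenase family member, and Hsd17b11 (0.81), a lipid droplet dehydrogenase. Most like Ces2a were Srd5a1 (0.79), a steroid reductase, Cyp2a1 (0.74), a testosterone hydroxylase, and RGD1559459 (0.72).

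The lowest members gave few counts. Ces2i ran from 0.157 to 2 TPM, with group means of 0.529 TPM in control, 0.624 TPM in LPS and 1.19 TPM in LPS_EF. Ces2c had at most 3 counts in any library and 0 in all 4 LPS_EF_PF libraries, so no comparison of its levels was made.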

How the data were processed

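Liver RNA of 38 rats in 8 groups was analysed, grouped by the treatment label, with replicate numbers from the sample titles. The samples are biological replicates per the series' design text. Counting per gene name was done by the authors with featureCounts 2.0.6 and a RefSeq annotation of rn6, per the file headers, with no strand option and no option for reads mapping to several places, and the deposited counts are whole numbers. STAR, RSEM and the build mRatBN7.2 are named in the submitters' processing notes. The deposited TPM values were length-scaled counts: recomputed from the counts, 432813 values of 1 TPM or more differed by at most 0.0495%. No molecular identifiers are mentioned, so counts may include copies made by PCR.

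Genes passing filterByExpr (minimum count 10, minimum total 15; 14786 genes) went into edgeR 4.0.16 (R 4.3.3): TMM scaling, glmQLFit and glmQLFTest, 1 mean per group over all 38 libraries, two-sided p-values adjusted by Benjamini-Hochberg within each comparison, and called at 0.05. There were 17 planned comparisons and 1 test of any difference among the 8 groups; 2 averaged contrasts were added after seeing the data. Intervals are 95%. The fitting was tested on simulated data. Alternatives were RLE and total-count scaling, DESeq2 1.42.0, no filter, a replicate block, limma 3.58.1 on log2(TPM + 1) and log2(TPM + 0.1) with a filter of 1 TPM in 4 libraries, the compared groups alone, and libraries left out singly or together. Scaling by total counts shifted the median gene from its TMM value by up to 0.17 on the log2 scale, in LPS_EF_PF against EF_PF, and by 0.13 in LPS against control, where the share of called genes that were higher went from 50.6% to 72%. Promoters came from a RefSeq table of GRCr8 and were aligned with Biopython 1.88.

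All 10 members are named. From other lists at most 3 called genes with the largest change are named where the higher group averaged 2 CPM or more, with Gusb, Nr1i2 and Nr1i3 always given; the most similar genes were the 3 with the highest rho for the top Ces1 and Ces2 member. Lypla1 was named after its value was seen. The members and lists were chosen with earlier results of these data known.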

Additional observations from a re-analysis of the deposited data

Results flagged for a closer look

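Among the 64 sets of member values by group that were examined, 7 held a sample far from the others of its group; chance gives about 1 in 20 such sets. Ces2e was at 96.9 TPM in EF 4, where the other 4 libraries ran from 1.49 to 5.92 TPM, and at 82.8 TPM in LPS_EF 4, where the others ran from 2.09 to 5.52 TPM. Ces2g was at 11.2 TPM in EF_RD 1, below the 13.8 to 14.2 TPM of the others, and that library held 4922 TPM of muscle markers. Ces2h was at 25.4 TPM in LPS 1, below 38.9 to 44.4 TPM, and LPS 1 also had the highest acute-phase sum of its group. Ces2j was at 11.3 TPM in EF_PF 1, below 17.0 to 18.9 TPM, and at 13.7 TPM in LPS 3, above 7.98 to 9.62 TPM; LPS 3 held 2960 TPM of pancreas markers. Ces1c was at 3420 TPM in EF_PF 2, above 2539 to 2662 TPM. The part of these markers in the values was not tested.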

How the results depend on the processing

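No member that was called in a comparison reversed its direction there under any alternative run. The number of members called (4 in LPS against control) was 1 with total counts, 1 and 1 in the limma fits on TPM, 2 in the compared groups alone and 2 with the replicate block. In EF against control, 0 became 1 with DESeq2 and 1 with the replicate block. In LPS_EF against LPS, 1 became 0 with total counts, with no filter, in both TPM fits, with the replicate block and without LPS_EF 7, LPS_EF_RD 6 and EF 1, and 2 with DESeq2. In LPS_EF_RD against LPS, 1 became 2 with DESeq2, without LPS 3 and EF_RD 1 and without these and control 5, and 0 with the replicate block, in the compared groups alone and without LPS_EF 7, LPS_EF_RD 6 and EF 1. In LPS_EF against EF, 3 became 1 with total counts, in both TPM fits and in the compared groups alone. In LPS_EF_PF against EF_PF, 4 became 2 with total counts and 1 in both TPM fits. In LPS_EF_RD against EF_RD, 2 became 0 with no filter and 1 with total counts, in both TPM fits, with the replicate block and without any of the 3 sets of libraries left out together. In the compared groups alone both calls were lost and 1 other, Ces1c (adjusted p = 0.0497), was made. In LPS_EF against LPS the compared groups alone called Ces2j in place of Ces2a. Any extract against none went from 2 to 4 with the replicate block, adding Ces2i and Ces1c. Calls over all genes moved too: DESeq2 made 276 in EF against control (edgeR 136), 89 in LPS_EF against LPS (16) and 16 in LPS_EF_RD against LPS (2), and the replicate block made 3565 in LPS against control (5435), 3 in LPS_EF against LPS and 626 in any extract against none (452). In EF against control the replicate block made 136. For LPS against control there were 5100 with total counts, 4530 and 4538 in the limma fits and 5077 in the compared groups alone. For LPS_EF against EF (4310) these were 3747, 3352, 3429 and 2127. The fits held 14786 genes in edgeR's main run, 23967 in DESeq2 and 12506 in limma.

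Leaving out 1 library gave 2 to 4 calls in LPS against control, 0 to 1 in EF against control, 0 to 1 in LPS_EF against LPS, 0 to 2 in LPS_EF_RD against LPS, 1 to 4 in LPS_EF against EF and 0 to 2 in LPS_EF_RD against EF_RD. The 0 to 2 in LPS_EF_RD against LPS moved with each of the 10 libraries.

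The labels state no pairing between libraries of the same replicate number. Of 88 same-numbered pairs, 24 correlated over 0.1 (median 0.018, highest 0.453, beside a median of 0.001 for other pairs). The share of other pairs over 0.1 was not counted. In all, 5 of 38 libraries correlated best with their own number. Beside the counts above, the replicate block moved LPS_EF against EF from 3 to 4 and any difference among the 8 groups from 6 to 7.

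With 4 or 5 rats a group, single extract comparisons could not resolve changes near those of Ces2a and Ces2j firmly, and low counts limit Ces2i and Ces2c.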
